A study of Mus musculus with 12 samples.

Results

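The genes described here are inhibitors of Wnt signalling that the pathway itself induces. Their names were fixed as a list of 9 mouse genes: Notum, Wif1, Dkk2 and Dkk3, whose products are secreted, Rnf43, Znrf3 and Apcdd1, whose products sit in the membrane, and Axin2 and Nkd1, whose products are intracellular. Of these, 8 had a value of their own among the 14082 gene symbols used. The 9th, Rnf43, was deposited only as 1 joined row with its neighbour Supt4a, a transcription elongation factor gene, so its level could not be separated and that row is given apart.

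RNA was sequenced from Lgr5-GFP+ stem cells sorted from the intestinal epithelium of C57BL/6 mice, with 4 libraries for each of 3 genotypes. Apc_KO mice were ApcFlox/Flox, Apc_HET mice were ApcFlox/+ and Apc_WT mice were Apc+/+. Every mouse, Apc_WT included, carried Lgr5-CreERT2-ires-eGFP, which places both the Cre recombinase and the green reporter under Lgr5. Every mouse also received tamoxifen, as 1 injection followed by 5 days of medicated diet, and cells were sorted on day 15. Cre expression was thus limited to cells that express Lgr5, and the sort depended on a reporter at that same gene. No age or sex of the mice was used. Nothing in the labels ties a replicate number to a litter, day or batch, and p-values measure the spread between these libraries.

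Wnt ligands bind Frizzled receptors together with Lrp5 or Lrp6, which halts the destruction of beta-catenin and lets it switch on target genes with TCF and LEF factors. Apc is a scaffold of the destruction complex. In the crypt base, where Wnt signalling maintains stem cells, several targets act back on the pathway at different steps. Secreted inhibitors act on the ligand or on Lrp co-receptors, membrane ubiquitin ligases remove Frizzled from the surface, and intracellular inhibitors act on the complex or on Dishevelled.

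Levels are FPKM, read fragments scaled by transcript length and by the mapped fragments of the library, as the authors deposited them. FPKM totals per library were 391710 to 518428 in Apc_KO, 411679 to 440254 in Apc_HET and 407340 to 496814 in Apc_WT. The number of reads is not given. The steps between low values gave depths relative to Apc_WT replicate 1 of 0.432 to 0.760 in Apc_KO, 0.738 to 0.882 in Apc_HET and 0.370 to 1 in Apc_WT. No 2 libraries of a genotype shared more than 0.818% identical values. Of 10 stem cell markers, all above 0 in every genotype, 5 were called higher and 2 lower in Apc_KO than in Apc_WT. Axin2, itself one of the inhibitor genes, is among these markers and was called higher. Over all tested genes, 27.9% were called higher and 17.7% lower. The 10 stem cell markers summed to 771 to 1546 FPKM in Apc_KO, 5391 to 8564 in Apc_HET and 5655 to 6508 in Apc_WT. Most of that difference lay in Olfm4, at 81.7 to 702 FPKM in Apc_KO, 4693 to 7654 in Apc_HET and 5019 to 5782 in Apc_WT. The summed level of 9 epithelial markers was 2058 to 3378 FPKM in Apc_KO, 2159 to 2525 in Apc_HET and 2145 to 2481 in Apc_WT. Within that sum 5 of the 8 tested were called lower and 1 higher in Apc_KO than in Apc_WT (median log2 difference -0.50), against 17.7% and 27.9% of all genes. Vil1 read 69.9 to 102 FPKM in Apc_KO and 176 to 268 in Apc_WT. Cdx2 read 19.7 to 30.5 FPKM in Apc_KO and 45.5 to 62.8 in Apc_WT. The keratin gene Krt18 went the other way, at 563 to 1241 FPKM in Apc_KO, 245 to 566 in Apc_HET and 250 to 352 in Apc_WT. Apc itself averaged 13.8 ± 3.18 FPKM in Apc_KO, 11.01 ± 1.11 in Apc_HET and 8.89 ± 1.64 in Apc_WT (SD, n = 4 each), a value for the whole gene that cannot show the loss of floxed exons.

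Positions are given in GRCm38. Notum (chr11:120653788-120661175, minus strand), Axin2 (chr11:108920349-108950783, plus strand), Znrf3 (chr11:5276324-5444847, minus strand) and Rnf43 (chr11:87662722-87735539, plus strand) share chromosome 11 but are not neighbours. Nkd1 is at chr8:88521354-88594884 (plus), Wif1 at chr10:121033960-121100650 (plus), Dkk3 at chr7:112116017-112159057 (minus) and Dkk2 at chr3:132085292-132180304 (plus). The deposited locus covered the whole annotated gene, or 99.9% of it for Dkk2, in all of these. Notum is overlapped on the opposite strand by the antisense genes Notumos and Myadml2os, and Axin2 by Gm11670, while Nkd1 overlaps Gm45496 on its own strand. Strand-specific counting is not stated, so reads of these overlapping genes could not be told apart from those of Notum, Axin2 and Nkd1.

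Upstream sequence is shown for 3 genes that had an entry: Nkd1 and Wif1, which were below 1.3 FPKM in every Apc_HET and Apc_WT library, and Axin2, which was already high there. The Nkd1 window lies inside the annotated gene, before a RefSeq start downstream of the first annotated one. Each window runs from 250 to 51 bases before a RefSeq transcript start (build GRCm38.p6), 5′ to 3′ on the gene's strand. Capitals mark CTTTG or its reverse complement, the core of the TCF and LEF binding motif.
Nkd1, chr8:88527383-88527582: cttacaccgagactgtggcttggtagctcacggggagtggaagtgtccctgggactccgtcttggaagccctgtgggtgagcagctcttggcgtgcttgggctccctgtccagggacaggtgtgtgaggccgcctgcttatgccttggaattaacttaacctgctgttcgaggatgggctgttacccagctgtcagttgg
Wif1, chr10:121033754-121033953: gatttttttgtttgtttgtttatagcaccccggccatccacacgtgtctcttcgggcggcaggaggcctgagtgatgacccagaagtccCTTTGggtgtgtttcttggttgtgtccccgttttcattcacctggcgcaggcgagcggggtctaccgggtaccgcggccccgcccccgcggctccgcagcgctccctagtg
Axin2, chr11:108920099-108920298: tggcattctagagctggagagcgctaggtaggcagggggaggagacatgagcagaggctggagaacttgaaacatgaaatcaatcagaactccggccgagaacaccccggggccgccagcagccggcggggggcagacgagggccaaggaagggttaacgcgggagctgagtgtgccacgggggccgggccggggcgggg

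The longer motifs CTTTGAA and CTTTGAT, searched on both strands, occurred in none of these 3 windows, nor in the 1 window of Dkk2 and the 2 windows of Rnf43, the other listed genes with an entry. Among all 32851 RefSeq windows of the same length, 6.3% held at least 1 of the 2. The 5-letter core CTTTG, which both longer motifs contain, occurred once in Wif1 and once in Dkk2 and in 42.3% of all windows. The GC content was 58.5% in the Nkd1 window, 61% in that of Wif1 and 66% in that of Axin2. These are matches of letters in 1 short window per start site.

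Setting Apc_KO against Apc_WT addresses the effect of losing the second as well as the first Apc copy. All 8 genes were higher in every Apc_KO library than in any Apc_HET or Apc_WT library. Over the 12962 genes tested, 24.3% were higher without overlap in Apc_KO than in Apc_WT, and 21.4% were so in Apc_KO than in Apc_HET. The size of the difference fell into separate ranges. Notum, Nkd1, Dkk3, Wif1 and Dkk2 were below 1.3 FPKM in Apc_HET and Apc_WT and over 90 times higher in Apc_KO than in Apc_WT, Apcdd1 was 18.8 times higher, and Znrf3 and Axin2, already present in Apc_WT, were 3.29 and 2.58 times higher, all as ratios of mean FPKM.

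**Figure D1:**
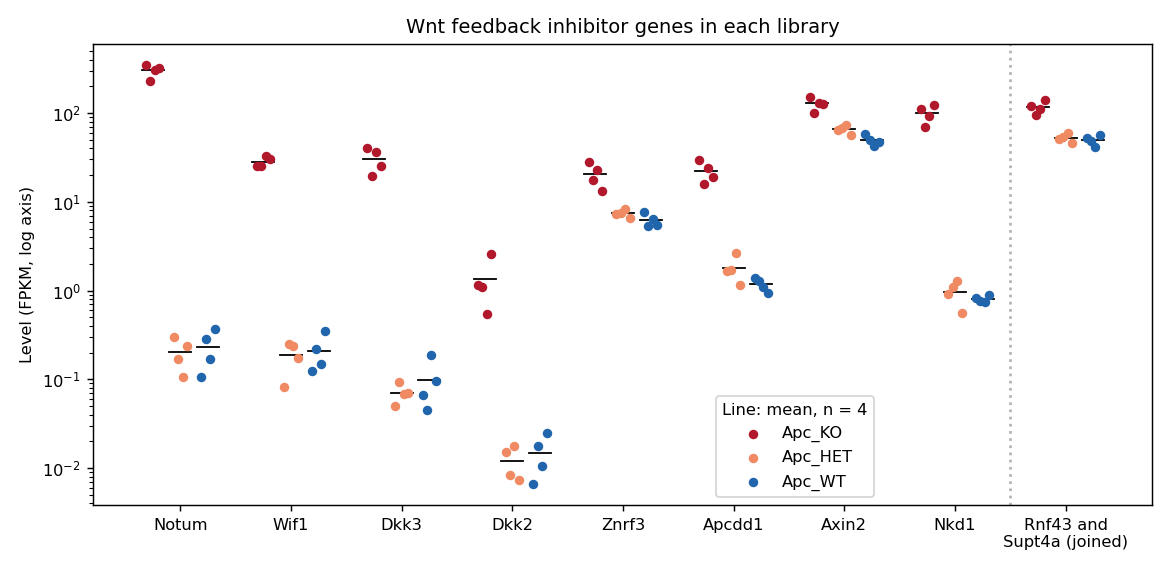
Level of each gene in each library, in FPKM on a log axis, with 4 points per genotype (Apc_KO, Apc_HET and Apc_WT from left to right) and a line at the mean. The Apc_KO points lie above all others for each gene, by 625 times between the nearest libraries for Notum and by 1.36 times (Apc_KO replicate 2 over Apc_HET replicate 3) for Axin2, and the Apc_HET and Apc_WT points overlap.

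Among the secreted inhibitors, Notum, a lipase that removes the palmitoleate from Wnt ligands and so inactivates them, had the highest level. It read 348, 232, 307 and 324 FPKM in Apc_KO replicates 1 to 4. The Apc_HET libraries read 0.303, 0.168, 0.107 and 0.238 FPKM and the Apc_WT libraries 0.105, 0.285, 0.169 and 0.372 FPKM. The lowest Apc_KO library was thus 625 times the highest Apc_WT library, and the other genotypes overlapped. Notum ranked between 105 and 215 of 14082 symbols by level in the Apc_KO libraries, between 13171 and 13648 in Apc_HET and between 12969 and 13473 in Apc_WT. The log2 difference from Apc_WT was 7.93 (SE 0.13, limma adjusted p = 5.8e-12), the largest positive one of the 12962 genes tested. Genes were tested if they reached 1 FPKM in 4 or more libraries. Notum, like Wif1, Dkk3 and Nkd1 below, did so only through the Apc_KO libraries, so the adjusted p of these genes lends no separate support.

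Wif1 encodes a secreted protein that binds Wnt ligands directly. Its level was 25.04, 25.3, 33.1 and 30.2 FPKM across the 4 Apc_KO replicates in order. Apc_HET libraries read 0.0830, 0.249, 0.237 and 0.175 FPKM and Apc_WT libraries 0.123, 0.222, 0.149 and 0.349 FPKM. With a highest-to-lowest ratio of 1.32 in Apc_KO, Wif1 varied least among those libraries of the 8 genes. The log2 difference between Apc_KO and Apc_WT was 4.60 (SE 0.13, limma adjusted p = 2.18e-10).

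The Dickkopf proteins are secreted, and Dkk2 binds the Lrp co-receptors, whereas the action of Dkk3 on Wnt signalling is less settled. Dkk3 read 40.8, 19.6, 36.0 and 25.6 FPKM in Apc_KO replicates 1 to 4. Its Apc_HET libraries lay between 0.0508 and 0.0935 FPKM and its Apc_WT libraries between 0.0457 and 0.190 FPKM. The Apc_KO libraries thus spread over a 2.08-fold range, all more than 100 times the highest Apc_WT library. The log2 difference from Apc_WT was 4.79 (SE 0.19, limma adjusted p = 6.55e-09).

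Dkk2 stayed the lowest of the 8 genes in every genotype. Its level was 1.15, 1.10, 0.546 and 2.59 FPKM in replicates 1 to 4 of Apc_KO, with 0.0151, 0.00837, 0.0178 and 0.00743 FPKM in Apc_HET and 0.00655, 0.0177, 0.0106 and 0.0248 FPKM in Apc_WT. The Apc_KO libraries spread over a 4.75-fold range, the widest of the 8, and still did not overlap with the others. Dkk2 missed the filter on low values (at least 1 FPKM in at least 4 libraries) and was tested alone: the difference of mean log2(FPKM + 1) between Apc_KO and Apc_WT was 1.14 (two-sided exact permutation p = 0.0286, the smallest that 4 against 4 libraries allow). In a limma fit without the filter its adjusted p was 0.00073.

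The low values of 3 secreted inhibitors could be read as whole steps, each taken to be 1 fragment. For Dkk2 the 4 Apc_KO libraries then held 85, 127, 36 and 241 fragments. The 4 Apc_HET libraries held 2, 1, 2 and 1, and the 4 Apc_WT libraries 1, 1, 1 and 2. Per unit of relative depth, the ratio of Apc_KO to Apc_WT was 108, with an exact 95% interval of 45.9 to 334 that covers counting error only. The control level of Dkk2 thus rested on 5 fragments in all.

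For Wif1 the Apc_KO levels came to 1178, 1871, 1394 and 1789 fragments, with 7, 19, 17 and 15 in Apc_HET and 12, 8, 9 and 18 in Apc_WT. The ratio of Apc_KO to Apc_WT per unit of depth was 146 (exact 95% interval 110 to 199, counting error only). For Notum, whose high values in Apc_KO were not all whole steps, the steps were 20, 10, 6 and 16 in Apc_HET and 8, 8, 8 and 15 in Apc_WT. Each Apc_HET and Apc_WT library thus held 6 to 20 fragments assigned to Notum, which may include reads of its antisense neighbours, and 7 to 19 assigned to Wif1.

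Of the membrane inhibitors, Apcdd1, a glycoprotein that binds Wnt ligands and Lrp5 (chr18:62922231-62961179, plus strand, of which the deposited locus covered 81.0%), read 29.9, 16.1, 24.2 and 18.9 FPKM in Apc_KO replicates 1 to 4. Apc_HET libraries read 1.67, 1.73, 2.66 and 1.16 FPKM and Apc_WT libraries 1.40, 1.29, 1.11 and 0.928 FPKM. No Apc_KO library came within 6-fold of an Apc_HET library. The log2 difference between Apc_KO and Apc_WT was 3.38 (SE 0.20, limma adjusted p = 1.07e-07).

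Znrf3 encodes a ubiquitin ligase that clears Frizzled receptors from the cell surface and that R-spondins neutralise through Lgr receptors. It read 28.3, 17.7, 22.9 and 13.1 FPKM in Apc_KO replicates 1 to 4, 7.33, 7.48, 8.26 and 6.66 FPKM in Apc_HET and 7.69, 5.41, 6.35 and 5.48 FPKM in Apc_WT. The lowest Apc_KO library was 1.59 times the highest Apc_HET library. Its log2 difference from Apc_WT was 1.53 (SE 0.20, limma adjusted p = 4.91e-05).

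The joined row of Rnf43, the paralogous ubiquitin ligase, and Supt4a stood at 120, 95.4, 111 and 140 FPKM in replicates 1 to 4 of Apc_KO. Apc_HET libraries read 50.6, 54.4, 60.2 and 45.9 FPKM and Apc_WT libraries 52.0, 47.9, 41.0 and 56.6 FPKM. The row was higher in all 4 Apc_KO libraries (log2 difference 1.22, SE 0.14, limma adjusted p = 2.07e-05). How much of the level or of the difference belongs to Rnf43 cannot be told from the row.

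Of the intracellular inhibitors, Axin2, a scaffold of the destruction complex like Axin1, was the only one of the 8 genes above 40 FPKM in every library. It read 153, 101, 131 and 127 FPKM in Apc_KO replicates 1 to 4, 65.0, 68.6, 74.0 and 56.1 FPKM in Apc_HET and 57.8, 50.3, 42.8 and 47.6 FPKM in Apc_WT. The genotypes stood in the order Apc_KO, Apc_HET, Apc_WT, and only Apc_HET and Apc_WT overlapped. Between Apc_KO and Apc_WT the log2 difference was 1.34 (SE 0.14, limma adjusted p = 1.04e-05).

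Nkd1 encodes an inhibitor that binds Dishevelled. Its level was 111, 70.2, 91.5 and 123 FPKM in replicates 1 to 4 of Apc_KO. The Apc_HET libraries, at 0.917, 1.09, 1.28 and 0.561 FPKM, lay on both sides of the Apc_WT range of 0.831, 0.760, 0.742 and 0.884 FPKM. The log2 difference between Apc_KO and Apc_WT was 5.76 (SE 0.17, limma adjusted p = 4.88e-10), the 8th largest of the 12962 genes.

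**Figure D2:**
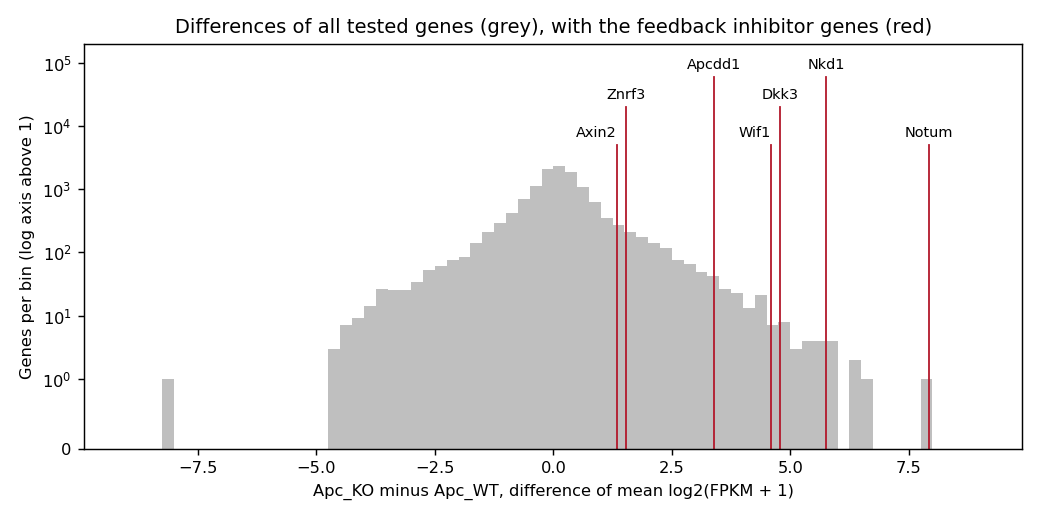
Number of genes per bin of the Apc_KO minus Apc_WT difference of mean log2(FPKM + 1), for the 12962 tested genes, with red lines at the 7 tested inhibitor genes. Notum lies at the upper end at 7.93, Apcdd1 at 3.38, and Axin2 (1.34) and Znrf3 (1.53) lie nearer to the bulk of the genes.

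Over all 12962 genes, 27.9% were called higher in Apc_KO than in Apc_WT at a limma adjusted p under 0.05, with a median log2 difference of 0.12, and 45.5% were called in either direction (17.7% lower). Of the 8 inhibitor genes, 7 passed the filter on low values and 7 were called higher. The filter bears on that count. Notum, Wif1 and Dkk3 reached 1 FPKM only in the Apc_KO libraries, so to pass they had to be higher in all 4 of those. Nkd1 read 1.09 and 1.28 FPKM in Apc_HET replicates 2 and 3 but still needed Apc_KO libraries to pass. If the filter is reapplied to 11 libraries, leaving out any 1 Apc_KO library takes Notum, Wif1 and Dkk3 out of the test, so that 4 genes are tested and 4 called, against 7. The other 3, Axin2, Znrf3 and Apcdd1, reached 1 FPKM in at least 4 libraries of the other genotypes. By size of difference Dkk3 ranked 27, Wif1 30, Apcdd1 140, Znrf3 966 and Axin2 1159 of 12962. With a pseudocount of 0.1 FPKM in place of 1, which lifts genes near 0, the log2 difference was 9.89 for Notum, 7.25 for Dkk3, 6.75 for Nkd1, 6.56 for Wif1 and 4.10 for Apcdd1.

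Setting Apc_KO against Apc_HET addresses the loss of the second copy alone, and shares the Apc_KO libraries with the comparison above. Across all genes 22.8% were called higher in Apc_KO than in Apc_HET, 18.9% lower and 41.8% in either direction. Notum differed by 7.97 on the log2 scale (SE 0.13, limma adjusted p = 5.53e-12), Nkd1 by 5.65, Dkk3 by 4.82, Wif1 by 4.63 and Apcdd1 by 3.04. Here too Notum, Nkd1, Dkk3 and Wif1 passed the filter only through the Apc_KO libraries, so their calls lend no separate support. Znrf3 differed by 1.30 (SE 0.20, limma adjusted p = 0.000199) and Axin2 by 0.94 (SE 0.14, limma adjusted p = 0.000204). Dkk2, tested alone, differed by 1.14 (exact permutation p = 0.0286, two-sided, again the lowest value this design allows). Axin2 thus had the smallest difference of the 8 genes here, at 128 ± 21.4 FPKM in Apc_KO against 65.9 ± 7.54 FPKM in Apc_HET (SD, n = 4 each).

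**Figure D3:**
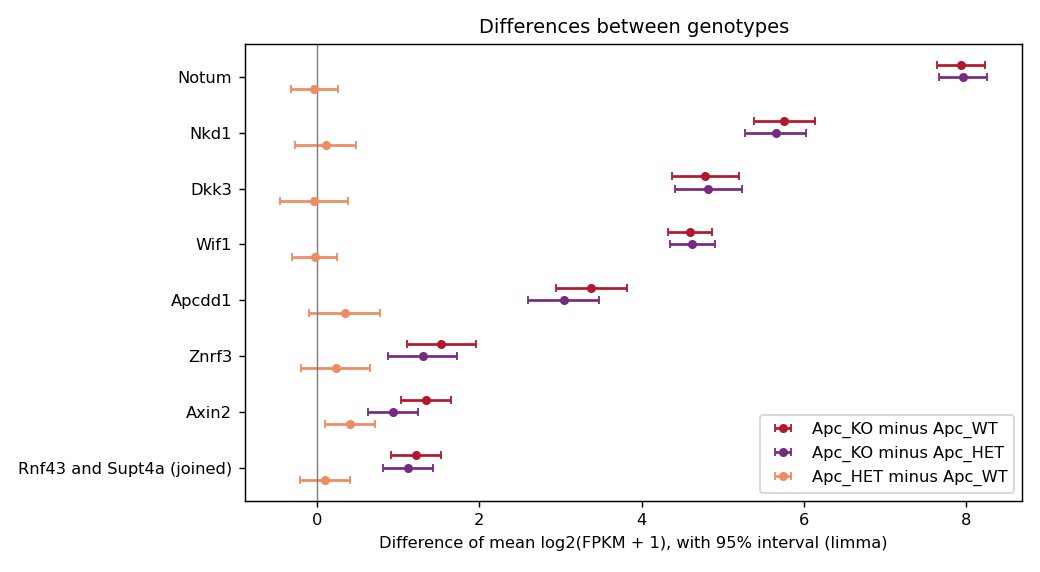
Difference of mean log2(FPKM + 1) with its 95% interval from limma, for each gene that passed the filter and for the joined row, in the 3 comparisons. The intervals of both Apc_KO comparisons lie above 0 for each gene, and those of Apc_HET minus Apc_WT include 0 except for Axin2, whose interval is 0.09 to 0.71.

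Setting Apc_HET against Apc_WT addresses the loss of 1 copy. None of the inhibitor genes was called, the libraries of both genotypes overlapped for each of the 8 (6.08% of all genes did not overlap), and 0 of 12962 genes were called by limma (0% of those tested), with 561 at an unadjusted p under 0.05 (4.33%). On the log2(FPKM + 1) scale Axin2 had the largest difference of the 7 genes tested, whereas by ratio of means Apcdd1, at 1.53, exceeded Axin2, at 1.33. Axin2 averaged 65.9 ± 7.54 FPKM in Apc_HET and 49.6 ± 6.29 FPKM in Apc_WT (SD, n = 4 each), a log2 difference of 0.40 with a 95% interval of 0.09 to 0.71 (limma unadjusted p = 0.015, adjusted p = 0.987, two-sided exact permutation p = 0.0571). In 3 of 4 Apc_HET libraries Axin2 was above every Apc_WT library, and in the 4th, at 56.1 FPKM, it was within their range.

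Apcdd1 averaged 1.80 ± 0.63 FPKM in Apc_HET and 1.18 ± 0.21 FPKM in Apc_WT, with a log2 difference of 0.34 and an interval of -0.10 to 0.78 (limma adjusted p = 0.987). Znrf3 averaged 7.43 ± 0.66 FPKM in Apc_HET and 6.23 ± 1.06 FPKM in Apc_WT, with an interval of -0.20 to 0.66. Intervals of the genes near 0 were -0.33 to 0.26 for Notum, -0.30 to 0.25 for Wif1, -0.45 to 0.38 for Dkk3 and -0.27 to 0.48 for Nkd1, on the log2(FPKM + 1) scale. In fragments per unit of depth, the ratio of Apc_HET to Apc_WT was 1.03 for Notum (exact 95% interval 0.666 to 1.60) and 0.951 for Wif1 (0.636 to 1.43), counting error only. For Dkk2 it was 0.925 with an interval of 0.235 to 3.83, so a change of up to 3-fold in either direction lay within counting error alone.

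The makeup of the set differed between genotypes, with FPKM as a level per length that can be set side by side across genes. The 8 genes summed to 633 ± 107 FPKM in Apc_KO, 76.6 ± 9.06 FPKM in Apc_HET and 58.4 ± 7.02 FPKM in Apc_WT (SD, n = 4 each). Notum made up 47.2 to 48.7% of that sum in the Apc_KO libraries, 0.123 to 0.402% in Apc_HET and 0.155 to 0.667% in Apc_WT. Axin2 made up 19.2 to 20.9% in Apc_KO, 85.4 to 86.4% in Apc_HET and 83.1 to 86.2% in Apc_WT. Nkd1 held 14.2 to 18.5% in Apc_KO and at most 1.59% in the other libraries. In Apc_KO the order by mean level was Notum, Axin2, Nkd1, Dkk3, Wif1, Apcdd1, Znrf3 and Dkk2, in which Axin2 and Nkd1 overlapped in their library values, as did Dkk3, Wif1, Apcdd1 and Znrf3.

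**Figure D4:**
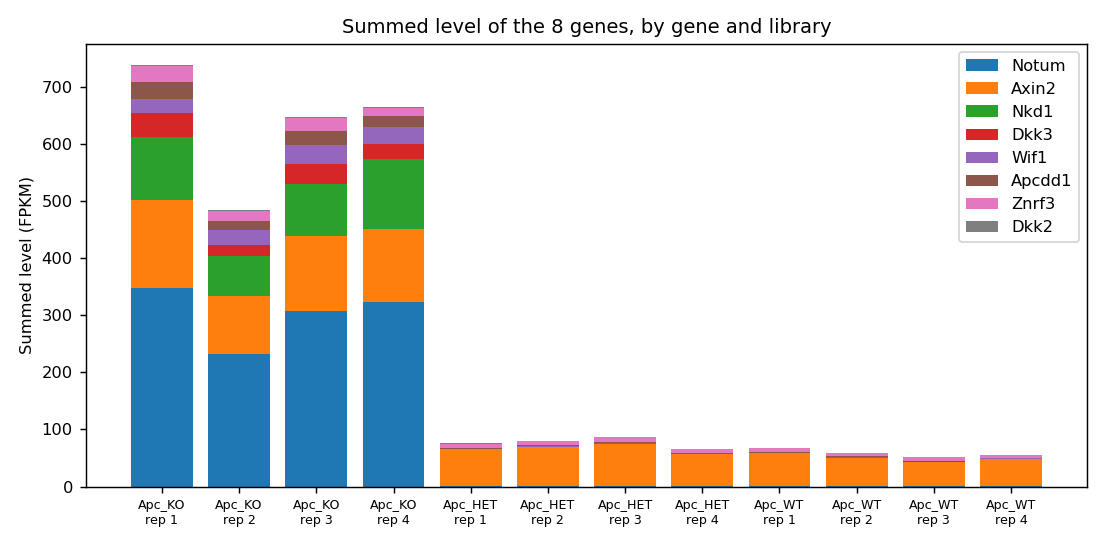
Summed level of the 8 genes in each of the 12 libraries, in FPKM, divided by gene. Bars reach 483 to 738 FPKM in Apc_KO with Notum the largest part, and 51.5 to 86.7 FPKM in Apc_HET and Apc_WT with Axin2 the largest part.

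The Apc_KO libraries differed among themselves. Replicate 1 held the highest value of 5 of the 8 genes, and replicate 2 the lowest of 5 and the highest of none. Relative to the mean of the 4 Apc_KO libraries, replicate 2 read 0.767 for Notum, 0.788 for Axin2, 0.710 for Nkd1, 0.722 for Apcdd1 and 0.642 for Dkk3. Replicate 4 departed from that order, at 1.93 for Dkk2 and 1.24 for Nkd1 but 0.639 for Znrf3. Lgr5, the gene behind the sort, read 65.4, 35.4, 36.3 and 27.0 FPKM in Apc_KO replicates 1 to 4, highest in replicate 1 as were Znrf3 and Axin2, and lowest in replicate 4 as was Znrf3. Replicate 2 had the greatest relative depth of the 4 (0.760). The part of depth or of Lgr5 level in these differences was not tested.

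**Figure D5:**
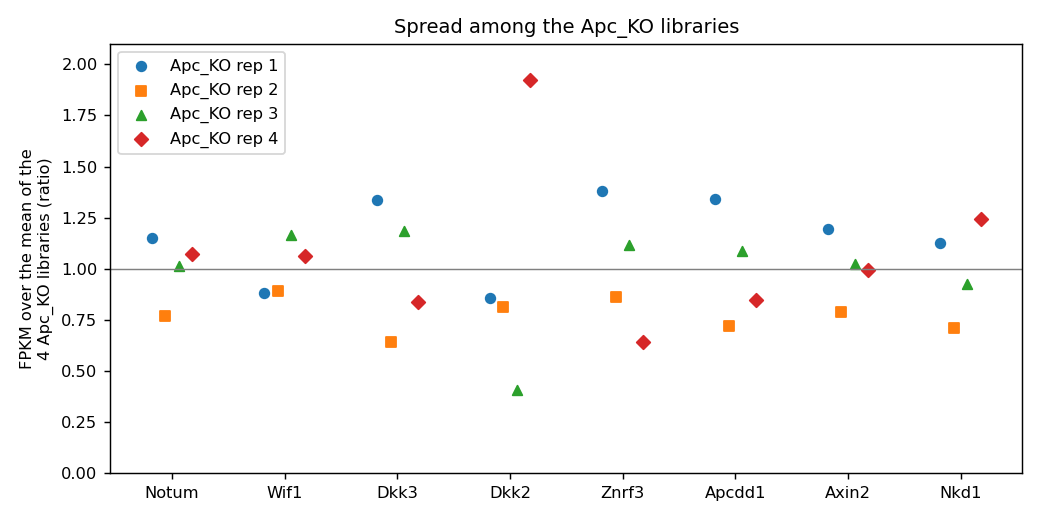
Level of each gene in each Apc_KO library divided by the mean of the 4, with 1 marking the mean. Replicate 2 lies below 1 for all 8 genes, and Dkk2 has the widest spread, 0.405 in replicate 3 and 1.93 in replicate 4.

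Stromal cells of the gut can also express secreted Wnt inhibitors, so marker genes of other cell types are given here. In bulk RNA, fewer cells of a type and less RNA per cell cannot be told apart. Of 12 fibroblast and mural cell markers 5 had a value, and their sum was 131 to 160 FPKM in Apc_KO, 20.8 to 88.5 in Apc_HET and 8.91 to 26.6 in Apc_WT. Vim made up most of it, at 115 to 134 FPKM in Apc_KO. Of 9 endothelial markers 4 had a value, with sums of 86.6 to 129 FPKM in Apc_KO, 29.8 to 49.0 in Apc_HET and 46.1 to 73.1 in Apc_WT. The receptor gene Pdgfra read 18.1, 34.9, 7.81 and 8.40 FPKM in Apc_KO replicates 1 to 4, 0.181 to 1.17 in Apc_HET and at most 0.0604 in Apc_WT, and the smooth muscle actin gene Acta2 read 3.91 to 5.56 FPKM in Apc_KO, at most 1.27 in Apc_HET and at most 0.177 in Apc_WT. The receptor gene Pdgfrb read 0.304 to 2.67 FPKM in Apc_KO, 4.58 to 9.03 in Apc_HET and 2.097 to 5.51 in Apc_WT. The collagen gene Col1a1 read 5.65, 0, 0.197 and 0 FPKM in Apc_KO replicates 1 to 4, at most 0.0745 in Apc_HET and at most 2.17 in Apc_WT. The endothelial cadherin gene Cdh5 read 27.6, 19.7, 14.2 and 29.3 FPKM in Apc_KO replicates 1 to 4. It read at most 0.00791 FPKM in Apc_HET and at most 0.02 FPKM in Apc_WT. Vwf, the largest part of the endothelial sum, overlapped between Apc_KO and Apc_WT. Its level was 50.01 to 86.1 FPKM in Apc_KO, 29.7 to 48.7 in Apc_HET and 45.997 to 73.03 in Apc_WT. Of the 4 endothelial markers tested between Apc_KO and Apc_WT, 3 were called higher and 1 did not pass. Of 10 leukocyte markers 6 had a value, with sums of 9.96 to 18.9 FPKM in Apc_KO, 12.3 to 32.0 in Apc_HET and 13.8 to 23.1 in Apc_WT. Paneth cell markers summed to 1460 to 6415 FPKM in Apc_KO, 3734 to 6694 in Apc_HET and 5421 to 9278 in Apc_WT. Of the 6 tested, 2 were called higher, 2 lower and 2 neither in Apc_KO than in Apc_WT. Over all genes 27.9% were called higher and 17.7% lower. Pla2g2a read 179 to 601 FPKM in Apc_KO and 8.33 to 15.3 in Apc_WT. Defa24 read 171 to 1331 FPKM in Apc_KO and 2083 to 3426 in Apc_WT. Enterocyte markers summed to 187 to 334 FPKM in Apc_KO, 444 to 1686 in Apc_HET and 1401 to 3852 in Apc_WT. The part of these cell types in the results was not tested.

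Other antagonists of the pathway moved in both directions. Of 25 listed, 12 were tested between Apc_KO and Apc_WT, 2 rose, 3 fell and 7 did not pass, with a median log2 difference of 0.10 against 0.12 over all genes. Over all genes 27.9% were called higher and 17.7% lower, so these counts lie near the background. Sfrp5, a secreted decoy for Wnt ligands, fell to 1.26 ± 0.99 FPKM in Apc_KO, against 20.1 ± 3.72 FPKM in Apc_WT (SD, n = 4 each), a log2 difference of -3.31 (limma adjusted p = 1.2e-06). Kremen2, a Dickkopf receptor gene, fell by 0.89 on the log2 scale (limma adjusted p = 0.00768). Its level was near the filter limit of 1 FPKM, at 0.53 ± 0.30 FPKM in Apc_KO, 0.97 ± 0.42 in Apc_HET and 1.88 ± 0.84 in Apc_WT. Dact1, whose product binds Dishevelled, rose by 1.81 (limma adjusted p = 0.00258).

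Receptors and ligands on which the inhibitors act were counted against the same background. Of the R-spondin receptors and ligands, which counter Znrf3 and Rnf43, 3 were tested and 3 rose: Rspo4 by 2.23, Lgr4 by 1.203 and Lgr5 by 0.70 on the log2 scale. Over all genes 27.9% were called higher. Rspo4 averaged under 1 FPKM in Apc_HET and in Apc_WT and passed the filter only through the Apc_KO libraries, so its call lends no separate support. The Lgr5 call was lost after scaling by size factors (0.58) or quantile normalization (0.64) and when the 2 genotypes were fitted alone (0.70). It was also lost when replicate 2 (0.70), 3 (0.62) or 4 (0.66) of Apc_WT was left out. Leaving out replicate 1 of Apc_KO gave 0.45, with a limma adjusted p of 0.0482, or 0.0502 with the filter reapplied. Of 13 Wnt receptor genes tested, 5 rose, 3 fell and 5 did not pass, near the 27.9% higher and 17.7% lower of all genes. Fzd5, a Frizzled receptor gene of the intestine, fell to 11.6 ± 4.95 FPKM in Apc_KO, against 36.3 ± 5.78 FPKM in Apc_WT, whereas Fzd3 rose by 1.67 and Fzd6 by 1.15. Fzd3 averaged under 1 FPKM in Apc_HET and in Apc_WT and passed the filter only through the Apc_KO libraries, so its call lends no separate support.

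Of 9 genes for Wnt ligands and their secretion, 4 rose, 2 fell and 3 did not pass, against 45.5% called in either direction over all genes. Wnt6 averaged 26.4 ± 12.7 FPKM in Apc_KO and 0.330 ± 0.061 FPKM in Apc_WT (log2 difference 4.23, limma adjusted p = 5.23e-07). Wnt11 rose by 1.94, and Wnt10a averaged 1.53 ± 0.40 FPKM in Apc_KO and was listed at 0 in all Apc_WT libraries. Wnt6, Wnt11 and Wnt10a averaged under 1 FPKM in Apc_HET and in Apc_WT. They passed the filter only with the help of the Apc_KO libraries, so their calls lend no separate support. Glypicans are heparan sulphate proteoglycans that bind Wnt ligands and on which Notum was first described to act in Drosophila. Of 3 tested, 2 rose and 1 did not pass, against 27.9% called higher over all genes. Gpc3 averaged 11.3 ± 3.24 FPKM in Apc_KO against 0.119 ± 0.015 FPKM in Apc_WT, and Gpc1 11.8 ± 0.94 FPKM in Apc_KO against 0.279 ± 0.118 FPKM in Apc_WT. Both averaged under 1 FPKM in Apc_HET too and passed the filter only through the Apc_KO libraries, so their calls lend no separate support.

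Among 18 Wnt targets outside feedback inhibition, 9 rose, 1 fell and 8 did not pass between Apc_KO and Apc_WT (median log2 difference 0.47), against 27.9% higher, 17.7% lower and a median of 0.12 over all genes. The homeobox gene Prox1 rose by 5.77, the transcription factor gene Lef1 by 3.83 and the receptor gene Tnfrsf19 by 2.92. Lef1 averaged under 1 FPKM in Apc_HET and in Apc_WT and needed the Apc_KO libraries to pass the filter, so its call lends no separate support. Between Apc_HET and Apc_WT no gene of any of these lists was called.

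Some genes outside the list had nearly the same pattern over the 12 libraries, as Pearson's r of log2(FPKM + 1), where libraries of 1 genotype share that genotype and its level. For Notum the nearest were Prr18 (0.999), Sox17 (0.999) and Asb4 (0.998), for Nkd1 Pdgfrl (0.999), Eml1 (0.999) and Gbx2 (0.998), and for Wif1 Sbspon (0.999), Bpifb5 (0.999) and Notum itself (0.998). For Dkk3 they were Rnf180 (0.999), Mboat2 (0.998) and Pald1 (0.997), and for Apcdd1 Stx11 (0.996), Arnt2 (0.995) and Hspb8 (0.994). Axin2 and Znrf3 had less close neighbours, Plekhm2 (0.987), Ephb3 (0.980) and Filip1l (0.980) for Axin2 and Usp22 (0.993), Fbxo21 (0.990) and Ago1 (0.989) for Znrf3. Sox17 averaged 106 FPKM in Apc_KO, 0.00853 in Apc_HET and 0.0121 in Apc_WT.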

How the data were processed

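Each library has 1 table of deposited FPKM values, per the file headers. The processing tools listed by the submitters (their processing notes) are Bowtie, TopHat, Cufflinks and Cuffdiff, with the builds mm10 and GRCm38. Versions, annotation, filters and any further scaling between libraries are not given in the sources used here. Where a symbol had several rows (2693 symbols), these were added up. Of 14499 symbols, 295 with loci that were not the same in every table and 122 with an estimate not marked OK were not used.

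Testing covered the 12962 genes that reached 1 FPKM in 4 or more libraries. limma 3.58.1 (R 4.3.3) was fitted with a mean-variance trend to log2(FPKM + 1) of the 12 libraries together. P-values are two-sided, adjusted by Benjamini-Hochberg over all tested genes, and called under 0.05. Fold changes on this scale understate those of genes near 0. Exact permutation tests of 4 against 4 libraries have 70 regroupings (Python 3.11.15). The fit was tested on simulated data.

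Relative depth came from 27 low symbols whose values were whole multiples of a common step within 0.1, for 94.7 to 100% of those usable in a library. For the inhibitor genes a limit of 8 steps in the lowest library was set after a limit of 40 had also fitted Dkk3, at more steps per library than the limit of 8 admits. That solution was not used, and steps are given for 3 genes. Intervals and counts from steps cover counting error only.

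Gene positions are from GENCODE M21 and promoters from RefSeq, with entries for 5 of the 9 genes. The promoter window was shortened to 200 bases because the longer Wif1 window held annotated 5′ UTR. The motifs and the step analysis were also chosen after the files had been seen.

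The genes and lists were chosen with earlier results of these data known. Every gene of the inhibitor list was described. From other pathway lists, up to 3 called genes of largest difference were named, and for each tested gene the 3 of most similar pattern averaging at least 5 FPKM in their highest genotype.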

Additional observations from a re-analysis of the deposited data

How the results depend on the processing

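The alternatives were a pseudocount of 0.1 FPKM, no filter, a filter of 5 FPKM, size factors, quantile normalization, a fit of the 2 genotypes alone, the replicate block, arrayWeights, the highest locus of each symbol, and each library left out in turn. In fits with fewer libraries the filter was held as set on all 12, a choice made after seeing that reapplying it removed genes from the test. Over these 21 settings Axin2, Znrf3 and Apcdd1, which pass the filter without the Apc_KO libraries, kept their direction and their call in Apc_KO against Apc_WT (63 of 63 values) and against Apc_HET (63 of 63). Notum, Wif1, Dkk3 and Nkd1 were also called throughout, which says little about stability because the filter kept them through the Apc_KO libraries. The 7 genes were called in 0 of 147 values of Apc_HET against Apc_WT. The log2 difference of Apc_KO from Apc_WT ran from 1.21 to 1.45 for Axin2 and from 7.82 to 9.89 for Notum. Without the filter 8 of the 8 genes were called in Apc_KO against Apc_WT, as were 6296 of all 14068 genes, 3936 of them higher. Dkk2, the gene this adds, rested on 5 fragments in Apc_WT.

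With the filter reapplied to the libraries left, an alternative added after seeing the data, the number of inhibitor genes called fell to 4 without Apc_KO replicate 1, 2, 3 or 4, in Apc_KO against Apc_WT and against Apc_HET, and was 7 without any other library. The genes lost were Notum, Wif1 and Dkk3, which no longer reached 1 FPKM in 4 libraries and were not tested, and the 4 genes tested were all called. Over all genes it gave 0 to 4 calls in Apc_HET against Apc_WT with a library left out and 1 in a fit of the 2 genotypes.

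Between Apc_HET and Apc_WT, values near 0 changed sign: Notum to 0.0081 without Apc_HET replicate 3 and to 0.022 without Apc_WT replicate 4, Wif1 to 0.014 without Apc_HET replicate 1 and to 0.025 without Apc_WT replicate 4, Dkk3 to 0.0024 without Apc_WT replicate 3, and Nkd1 to -0.020 with quantile normalization. With a library left out these differences ran, with either handling of the filter, from -0.082 to 0.022 for Notum, from -0.064 to 0.025 for Wif1 and from -0.060 to 0.0024 for Dkk3. Over all genes 1 was called in that comparison with a pseudocount of 0.1 FPKM, with arrayWeights and in a fit of the 2 genotypes alone, and 0 to 4 with a library left out (1 without Apc_KO replicate 2, 4 without Apc_HET replicate 4 and 3 without Apc_WT replicate 3), and the cause was not tested. Size factors moved the median log2 difference of all genes in Apc_KO against Apc_WT to 0.0062, against 0.12, with 2851 of 5681 calls higher, against 3613 of 5904, and quantile normalization gave 2764 of 5807.

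No label ties same-numbered libraries to each other. The correlation of their deviations ran from -0.195 to 0.18, which cannot show whether they shared a batch. With the replicate block 5681 genes were called in Apc_KO against Apc_WT, 5178 against Apc_HET and 0 in Apc_HET against Apc_WT, with 7, 7 and 0 of the inhibitor genes.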
